A study of Mus musculus with 17 samples.

Results

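The 4 Hox clusters of the mouse genome were described in mature thymocytes as chromatin windows in the mm9 build. Members were every enriched interval (island) of 12 histone ChIP-seq lists and every Tcf1 peak that overlapped a window by at least 1 bp. The windows were Hoxa on chromosome 6, 52100001 to 52215000; Hoxb on chromosome 11, 96110001 to 96235000; Hoxc on chromosome 15, 102745001 to 102875000; and Hoxd on chromosome 2, 74495001 to 74610000. Together they hold 485 kb. They took in 179 of 346699 islands and 2 of 7807 Tcf1 peaks: 59 islands in Hoxa, 40 in Hoxb, 37 in Hoxc and 43 in Hoxd. The 38 genes named for these windows are Hoxa2 to Hoxa7, Hoxa9 to Hoxa11 and Hoxa13, Hoxb1 to Hoxb9 and Hoxb13, Hoxc4 to Hoxc6 and Hoxc8 to Hoxc13, and Hoxd1, Hoxd3, Hoxd4 and Hoxd8 to Hoxd13. Islands are placed by their distance within a cluster and not at a named gene, since no gene positions in that build were used here. The Hoxb window is shorter than the run of its 10 genes in GRCm38, so it cannot hold all of them.

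Each of 3 thymocyte groups had 1 library per histone mark. WT CD8 were wild-type CD8 cells, and DKO CD8 were CD8 cells of genotype Tcf1-/-Lef1-/-, in which CD4-Cre had deleted both factors. CD4-Cre acts in thymocytes from about the CD4+CD8+ stage on, so the deletion is not present from the start of T cell development. The exact alleles of the control mice are not stated in the labels. WT CD4 were wild-type CD4 cells by title and source, although their phenotype label names CD8+. CD8 thymocytes had been sorted as TCRβ-high, CD69- and CD24-, and no label gives the age, the sex or how many mice were pooled. Several histone libraries, not named, had been sequenced a second time with longer reads. Tcf1 was mapped in splenic TCRβ-high CD8+ cells of wild-type mice, and cells of Tcf1-/- mice, also deleted by CD4-Cre, gave a second library that was not analysed here on its own. Cell identity was not checked at marker genes here, for the same lack of gene positions. Because each group had a single library per mark, differences between groups were not replicated and carry no p-value. Intervals are exact 95% intervals and cover counting error only.

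Hox genes encode homeodomain transcription factors that give cells their position along the body axis, and their order on the chromosome follows the order in which they act along that axis. Polycomb repressive complex 2 places H3K27me3 on the nucleosomes of silent Hox genes, while Trithorax-group complexes place H3K4me3 on active ones, and CpG-rich promoters are common landing sites for both. Of the other marks here, H3K27ac and H3K9ac are typical of active promoters and enhancers, and H3K4me3 together with H3K27me3 is called bivalent. Several Hoxa and Hoxb genes are active in blood stem and progenitor cells, among them Hoxa9, a driver of some leukaemias, and Hoxb4, known for expanding stem cells. Others act far from blood, such as Hoxd13 in the digits, Hoxc13 in hair and Hoxa13 in limb and urogenital development.

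To show the promoter DNA behind these clusters, 5 sequences are printed with each CG in capitals, because CG-rich promoters are the ones Polycomb is known to occupy. They are the 250 bases before the RefSeq start, in the gene's direction, in the GRCm38 build, whose coordinates do not apply to the mm9 islands. For each cluster the member with the most CG was taken among members with 1 start in the table, and for Hoxa also the member with the fewest. Hoxc4 is the only Hoxc member in the table, so its value is not the highest of several.
Hoxa13 (GRCm38.p6, chr6:52260881-52261130, minus strand): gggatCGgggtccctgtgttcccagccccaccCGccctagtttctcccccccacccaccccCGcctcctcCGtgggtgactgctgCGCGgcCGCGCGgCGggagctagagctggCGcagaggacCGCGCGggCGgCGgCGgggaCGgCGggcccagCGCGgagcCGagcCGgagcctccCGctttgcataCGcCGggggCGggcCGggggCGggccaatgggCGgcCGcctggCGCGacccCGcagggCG
Hoxd13 (GRCm38.p6, chr2:74667975-74668224, plus strand): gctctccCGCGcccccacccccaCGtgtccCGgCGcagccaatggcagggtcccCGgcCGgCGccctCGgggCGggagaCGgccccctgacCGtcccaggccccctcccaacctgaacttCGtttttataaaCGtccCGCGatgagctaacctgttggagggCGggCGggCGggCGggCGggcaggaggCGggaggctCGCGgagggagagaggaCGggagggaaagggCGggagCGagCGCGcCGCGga
Hoxb4 (GRCm38.p6, chr11:96318017-96318266, plus strand): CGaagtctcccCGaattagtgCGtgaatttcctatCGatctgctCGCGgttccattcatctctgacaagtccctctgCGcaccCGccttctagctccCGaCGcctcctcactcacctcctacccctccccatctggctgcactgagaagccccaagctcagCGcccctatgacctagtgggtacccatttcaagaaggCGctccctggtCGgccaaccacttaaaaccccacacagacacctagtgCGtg
Hoxc4 (GRCm38.p6, chr15:103034145-103034394, plus strand): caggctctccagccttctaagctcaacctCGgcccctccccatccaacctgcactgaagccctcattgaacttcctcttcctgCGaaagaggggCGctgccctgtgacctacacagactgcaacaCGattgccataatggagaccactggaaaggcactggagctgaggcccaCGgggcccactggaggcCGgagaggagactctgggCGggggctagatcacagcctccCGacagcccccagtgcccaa
Hoxa9 (GRCm38.p6, chr6:52227371-52227620, minus strand): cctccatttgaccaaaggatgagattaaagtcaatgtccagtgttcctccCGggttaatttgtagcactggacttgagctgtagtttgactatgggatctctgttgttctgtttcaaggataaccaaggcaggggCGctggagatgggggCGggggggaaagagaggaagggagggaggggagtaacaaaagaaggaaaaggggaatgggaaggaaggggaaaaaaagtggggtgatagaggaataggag
Hoxa13 had 35 CG, and 97.0% of the 32851 promoters in the table had fewer. Hoxd13 had 31 CG (94.8% had fewer), Hoxb4 14 (70.6%), Hoxc4 8 (57.0%) and Hoxa9 3 (29.0%). The median over the table was 6. The range among these 5 was fixed by how they were chosen. Only 22 of the 38 genes (57.9%) had an entry in the table, too few for a statement on the whole set, so the check of CG content over the set is void.

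H3K27me3 covered most of each Hox cluster in each of the 3 groups. In WT CD8, islands covered 62.1% of the Hoxa window, 77.3% of Hoxb, 82.6% of Hoxc and 72.5% of Hoxd. In DKO CD8 the cover was 76.7% of Hoxa, 97.9% of Hoxb, 99.2% of Hoxc and 97.6% of Hoxd. In WT CD4 it was 85.6%, 98.7%, 97.8% and 94.96% in the same order. Hoxa was the least covered cluster in each group, and WT CD8 had the lowest cover of each cluster. Over the genome between the outermost islands, the same libraries covered 4.69% (WT CD8), 3.73% (DKO CD8) and 5.51% (WT CD4), so WT CD8 was not the least covered group there. The cover of the 4 windows together was 74.0% in WT CD8, 15.8 times the genome-wide cover. In DKO CD8 it was 93.2%, or 25.0 times, and in WT CD4 94.5%, or 17.2 times.

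**Figure D1:**
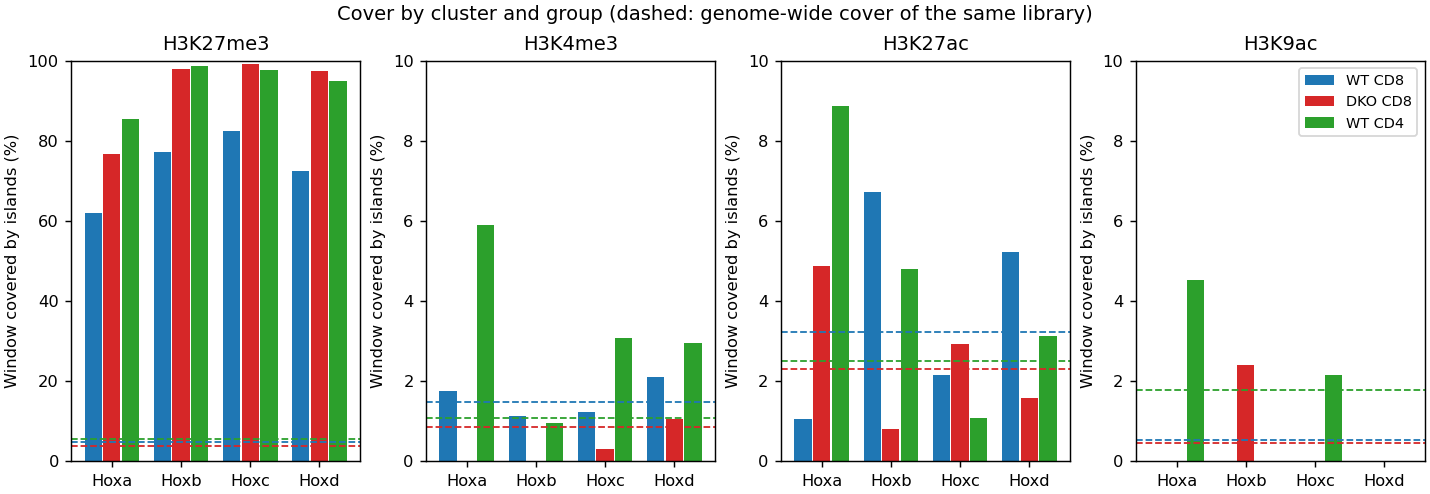
Share of each Hox window (vertical axis, %) covered by islands of the 4 histone marks, with 1 bar per group and cluster and dashed lines at the genome-wide cover of the same library; the H3K27me3 axis runs to 100% and the others to 10%. H3K27me3 bars stand between 62.1% and 99.2%, while no other bar exceeds 8.87%.

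Few stretches of the genome had as large a share of their length covered by H3K27me3. The chromosomes were divided into consecutive tiles of each window's length, leaving out tiles that touched a Hox window. The tiles ran in fixed steps and were not fitted to domains, whereas each window was set around a cluster. Of 22408 tiles of 115 kb, 11 had more H3K27me3 cover than Hoxa for WT CD8, 14 for DKO CD8 and 15 for WT CD4. For Hoxd the numbers were 3, 0 and 6 of the same tiles. Of 20613 tiles of 125 kb, 1 had more cover than Hoxb in WT CD8 and 0 in the other 2 groups, and of 19818 tiles of 130 kb, 0 had more than Hoxc in any group. The median tile had 2.72% to 2.78% cover in WT CD8 and at most 0.615% in the other groups.

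**Figure D2:**
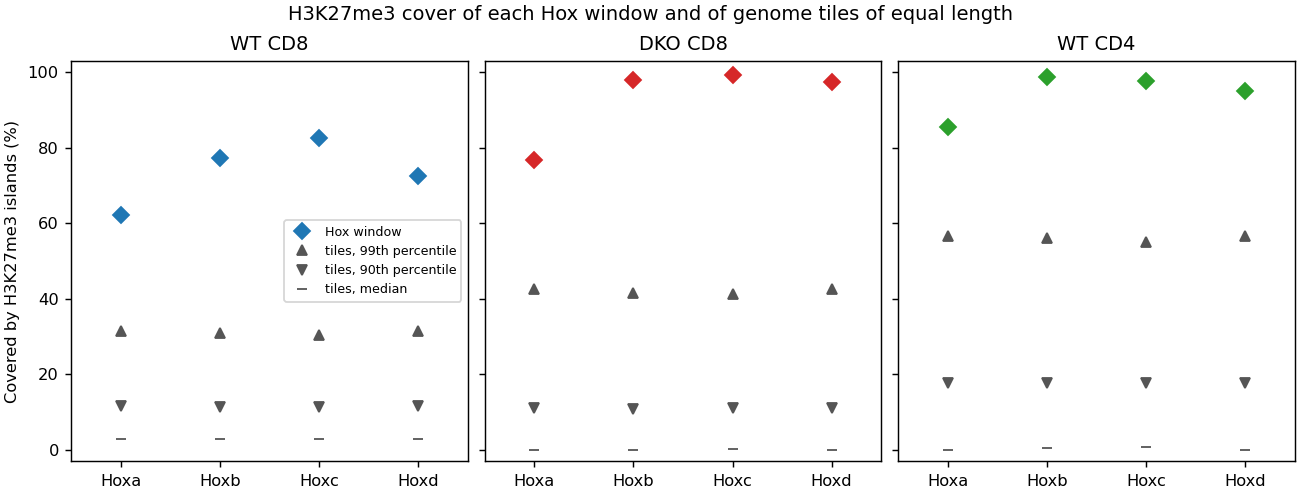
H3K27me3 cover (vertical axis, % of length) of each Hox window (diamonds) beside the median, 90th and 99th percentile of genome tiles of the same length, 1 panel per group. Every diamond lies above the 99th percentile, which is 30.4% to 31.5% for WT CD8, 41.2% to 42.6% for DKO CD8 and 55.1% to 56.7% for WT CD4; Hoxa is the lowest diamond in each panel.

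The windows also ranked high by reads, and in each group some tiles exceeded them. Reads were assigned to a window in proportion to the length of each island inside it. Hoxa held 1570 reads for WT CD8, 5023 for DKO CD8 and 5314 for WT CD4, and 23, 7 and 6 tiles held more. Hoxc held 2138, 6889 and 6966 reads, and 16, 6 and 5 tiles held more. Hoxb held 1871, 6021 and 6013 reads, with 20, 8 and 6 tiles above it, and Hoxd held 1664, 6389 and 6313, with 18, 6 and 4 above. These totals are over windows of 115 to 130 kb and do not rank the clusters by density.

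The wide Hox domains were among the widest H3K27me3 islands of their lists. In WT CD4 the island with the most reads at Hoxb ran from 95999201 to 96187800 on chromosome 11, with 9665 reads over 188.6 kb, and was the widest of 34013 islands. In DKO CD8 that at Hoxb, 96087201 to 96187400, held 5304 reads over 100.2 kb and ranked 3 in width of 23933. The DKO CD8 island at Hoxc, chromosome 15, 102738401 to 102859600, held 6725 reads over 121.2 kb and ranked 2. The widest WT CD4 island at Hoxc spanned 70.0 kb (rank 11). At Hoxd the strongest islands were 55.8 kb for DKO CD8 (3235 reads, rank 20) and 40.0 kb for WT CD4 (2261 reads, rank 87). At Hoxa they ran from 52174001 on chromosome 6 in both groups, to 52205800 for DKO CD8 (2470 reads) and to 52204600 for WT CD4 (2443 reads). WT CD8 islands were shorter, with the widest at Hoxc (39.4 kb, 787 reads), yet it ranked 8 in width of 34756.

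The same clusters were cut into more and thinner pieces in WT CD8. The 4 windows held 58 H3K27me3 islands for WT CD8, 22 for DKO CD8 and 21 for WT CD4. Hoxc went from 16 islands in WT CD8 to 2 for DKO CD8 and 3 for WT CD4, and Hoxb from 16 to 4 and 3, whereas Hoxa had 11, 12 and 9. Read density within Hox islands was 20.1 reads per kb for WT CD8, 52.7 for DKO CD8 and 53.0 for WT CD4. Set against the mean density of all islands in the same library, this was 0.947 times for WT CD8, 1.65 times for DKO CD8 and 1.87 times for WT CD4. Genome-wide, WT CD8 H3K27me3 islands averaged 21.2 reads per kb, DKO CD8 32.0 and WT CD4 28.4. The part of sequencing depth in the WT CD8 values was not tested, since only reads within islands are known. The WT CD8 list also differed elsewhere. Of 115 kb tiles, 70.3% held a WT CD8 H3K27me3 island, against 46.7% for DKO CD8 and 48.8% for WT CD4. Genome-wide, 42.7% of WT CD8 H3K27ac cover lay in H3K27me3 islands, against 9.91% in DKO CD8 and 9.90% in WT CD4. Every contrast with WT CD8 rests on this 1 H3K27me3 library, and its enrichment was not tested.

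Most breaks between neighbouring WT CD8 islands were bridged in the other groups. Of 41 breaks of at most 2 kb inside the windows, 2 were also open, at their midpoint, in both DKO CD8 and WT CD4, whereas over all chromosomes 43.9% of 4373 such WT CD8 breaks were. Of 15 DKO CD8 breaks in the windows 8 were open in both other groups (38.1% over all chromosomes), and of 15 WT CD4 breaks 7 were (63.1%). Sequence covered in DKO CD8 and WT CD4 but not in WT CD8 came to 16.2 kb in Hoxa, 26.8 kb in Hoxb, 21.2 kb in Hoxc and 25.8 kb in Hoxd. Sequence covered in WT CD8 alone came to 0.2 kb in Hoxa, 0 kb in Hoxb, 0.8 kb in Hoxc and 0 kb in Hoxd. All 58 WT CD8 islands in the windows met an island of DKO CD8 and one of WT CD4, where 32.9% and 36.7% of all WT CD8 H3K27me3 islands did. DKO CD8 and WT CD4 islands covered 93.2% and 94.5% of the windows. Most places there thus lie in their islands, whether or not WT CD8 has a break. The few open breaks and the overlap of all 58 islands are therefore not results apart from that cover.

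Some gaps in H3K27me3 were common to the 3 groups. Their total was 13.8 kb in Hoxa, 0.4 kb in Hoxb, 0 kb in Hoxc and 2.6 kb in Hoxd. The widest, both in Hoxa, lay on chromosome 6 at 52148001 to 52152600 (4.6 kb) and 52132201 to 52135800 (3.6 kb). A shorter Hoxa gap of 0.8 kb, 52173201 to 52174000, bordered the island with the most reads of that cluster in both DKO CD8 and WT CD4. In Hoxd, common gaps lay on chromosome 2 at 74523601 to 74524400 (0.8 kb), 74580201 to 74581200 (1 kb) and 74605401 to 74606200 (0.8 kb), and Hoxb had 1, at 96187801 to 96188200 on chromosome 11. Of the 13 common gaps 1, the first named Hoxd gap, overlapped an island of an active mark (WT CD8 H3K27ac, 16 reads). Whether sequence in these gaps can be mapped by short reads was not tested.

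Hoxa held a thinly marked stretch, chosen for description after its islands had been seen. It runs from the first to the widest common gap, from 52119201 to 52152600 on chromosome 6, 19.2 to 52.6 kb from the window start. H3K27me3 covered 14.4% of it for WT CD8, 32.9% for DKO CD8 and 64.7% for WT CD4, against 81.6%, 94.6% and 94.1% of the rest of the window. The stretch held 69 reads for WT CD8, 254 for DKO CD8 and 505 for WT CD4, or 2.07, 7.60 and 15.1 reads per kb. The rest of the window held 18.4, 58.4 and 58.9 reads per kb. These are unscaled reads of 1 library each, and the limits of the stretch were set by the islands themselves. Hoxd, Hoxb and Hoxc had no 5 kb bin without H3K27me3 in DKO CD8 or WT CD4, and in WT CD8 only Hoxb had 1, at 70 kb from the window start.

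**Figure D3:**
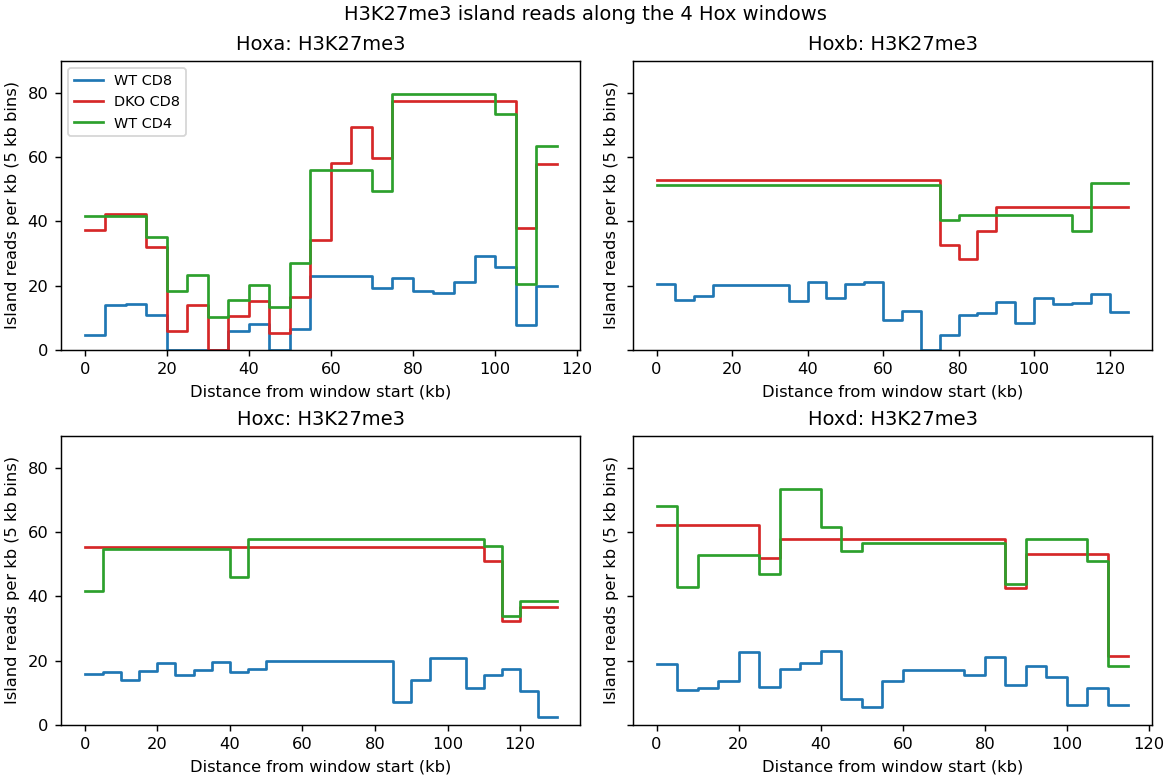
H3K27me3 island reads per kb (vertical axis) in consecutive 5 kb bins along each Hox window (horizontal axis, kb from the window start), 1 line per group; reads of an island are spread evenly over it, which makes wide islands flat. In Hoxa the lines dip between 19.2 and 52.6 kb and reach 77.7 (DKO CD8), 79.8 (WT CD4) and 29.2 (WT CD8) reads per kb beyond it.

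Along Hoxa the 3 profiles rose and fell together: over 23 bins, Spearman's rho was 0.83 for DKO CD8 with WT CD8, 0.83 for WT CD4 with WT CD8 and 0.95 for DKO CD8 with WT CD4. In Hoxd these were 0.28, 0.57 and 0.11, in Hoxb 0.56, 0.44 and 0.63, and in Hoxc 0.40, 0.52 and 0.56. These values describe neighbouring bins of 1 library each, which share islands, and are given without a test. Bins inside 1 island are tied, since its reads are spread evenly, so rank order depends on where islands end. In DKO CD8, 11 of 23 bins were fully covered in Hoxa, against 22 of 25 in Hoxb, 24 of 26 in Hoxc and 20 of 23 in Hoxd. The values are therefore not compared between clusters. Pearson's r was 0.95 in Hoxa, 0.76 in Hoxb, 0.84 in Hoxc and 0.72 in Hoxd for DKO CD8 with WT CD4.

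DKO CD8 was compared with WT CD8 to ask how loss of Tcf1 and Lef1 bears on Polycomb marking at Hox. Raw reads of overlapping H3K27me3 islands were 5171 and 1615 at Hoxa, 7415 and 1934 at Hoxb, 8405 and 2219 at Hoxc, and 6622 and 1664 at Hoxd, for DKO CD8 and WT CD8. Libraries were put on 1 scale by the median ratio of all 9092 regions called in both, 2.24-fold in favour of DKO CD8. Reads inside the window were not counted directly but assigned by the length of each island inside it, as above. By this measure the log2 ratio of DKO CD8 over WT CD8 was 0.52 (95% interval 0.43 to 0.60) at Hoxa and 0.52 (0.45 to 0.60) at Hoxb. It was 0.53 (0.46 to 0.60) at Hoxc and 0.78 (0.70 to 0.86) at Hoxd. With whole islands it was 0.52, 0.78, 0.76 and 0.83. The whole-island values depend on how far islands run, since DKO CD8 islands reach 22.8 kb before the Hoxb window and 31.2 kb after the Hoxc window. Both sums are over islands called separately, which cover 451.8 kb of the windows in DKO CD8 and 358.8 kb in WT CD8. The intervals do not include reads outside islands. For inside-window values they also leave out the error of spreading an island's reads evenly over its length. The 4 windows together had a log2 ratio of 0.58 inside the windows and 0.73 (0.69 to 0.77) with whole islands. Scaled by total island reads instead, the whole-island ratio was 1.64 over the 4 windows, and 1.42 at Hoxa, 1.68 at Hoxb, 1.66 at Hoxc and 1.74 at Hoxd. The size of the difference thus rests on the scale.

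Wide regions in general lay above the median of all shared regions. Over the 459 shared regions of at least 20 kb the median log2 ratio was 0.44, and the quartiles were 0.24 and 0.62. The inside-window values of Hoxa, Hoxb and Hoxc fell between them, and that of Hoxd lay above both. Of the 12 merged Hox regions called in both libraries, 11 were above the median of all shared regions, with a median of 0.59 and a range from -0.39 to 0.88. At least 2-fold higher were 0 of these 12, against 7.68% of all shared regions, and at least 2-fold lower were 0, against 20.7%. The lowest was in the thin stretch of Hoxa, 52138001 to 52143200, with 118 reads in DKO CD8 and 69 in WT CD8. The highest was in Hoxd, 74581201 to 74605400 on chromosome 2, with 1285 and 312 reads (0.88, 0.70 to 1.06). A further 5 Hox regions had only a DKO CD8 island, and 0 had only a WT CD8 island. Regions called in 1 library only were the more common kind elsewhere. Over all chromosomes 19.5% of 46546 merged regions were called in both libraries, against 70.6% of the 17 Hox regions.

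WT CD4 was set against WT CD8 with the same WT CD8 library, so this comparison is not independent of the first. Reads of overlapping islands in WT CD4 were 5466 at Hoxa, 11878 at Hoxb, 7275 at Hoxc and 6580 at Hoxd, and the median ratio of 9869 shared regions was 2.61-fold. The log2 ratios were 0.38 (0.30 to 0.46) at Hoxa, 1.24 (1.17 to 1.31) at Hoxb, 0.33 (0.26 to 0.40) at Hoxc and 0.60 (0.52 to 0.68) at Hoxd. The Hoxb value rests on the 188.6 kb WT CD4 island, 110.8 kb of which lies outside the window. It was 0.30 with reads assigned to the window by island length inside it. Over the merged region of both libraries, 95979201 to 96187800, WT CD4 had 10489 reads and WT CD8 3081, a log2 ratio of 0.39 (0.33 to 0.44). Inside the windows Hoxa had 0.38, Hoxc 0.32 and Hoxd 0.54. Over the 4 windows the ratio was 0.69 with whole islands, 0.38 inside the windows and 1.42 when whole islands were scaled by total island reads. All 4 inside-window values were at or above the median of 667 shared regions of at least 20 kb, 0.30 (quartiles 0.10 and 0.53). Of 16 merged Hox regions called in both, 14 were above the median of all shared regions, and the median of the 16 was 0.39. At least 2-fold higher were 0, against 6.59% of all shared regions, and at least 2-fold lower 0, against 18.5%.

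DKO CD8 and WT CD4 had nearly equal raw H3K27me3 reads inside the windows, and on the common scale DKO CD8 was slightly higher. The raw fold of DKO CD8 over WT CD4 was 0.945 at Hoxa, 1.001 at Hoxb, 0.989 at Hoxc and 1.01 at Hoxd. Against the median ratio of 12747 shared regions these were log2 ratios of 0.14, 0.23, 0.21 and 0.24, and 0.21 (0.18 to 0.23) over the 4 windows. The median of 772 regions of at least 20 kb was 0.087 (quartiles -0.10 and 0.21), and Hoxb and Hoxd lay above the upper quartile. With whole islands Hoxb turned to -0.46 (-0.50 to -0.41), since the wide WT CD4 island adds reads from outside. The 4 windows together had 0.048 (0.025 to 0.072) with whole islands, 0.21 inside the windows, and -0.0076 with lists trimmed to equal covered length, so no direction is read from the whole-island value. Of 16 merged Hox regions called in both, 13 were above the median of all shared regions and 0 were 2-fold higher, against 3.79% of all shared regions.

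Of these 16 regions 3 were at least 2-fold lower in DKO CD8 than in WT CD4, against 8.61% of all shared regions, and all lay in the thin Hoxa stretch. The region at 52120001 to 52124000 had 29 reads for DKO CD8 and 91 for WT CD4 (log2 ratio -1.43, -2.08 to -0.81). That at 52125001 to 52132200 had 69 and 168 reads (-1.06, -1.49 to -0.65), and that at 52143801 to 52148000 had 38 and 94 (-1.08, -1.67 to -0.52). WT CD8 had no island at any of them, so its reads there are not known. Reads that fall outside an island are not in the files, and the intervals leave this out.

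**Figure D4:**
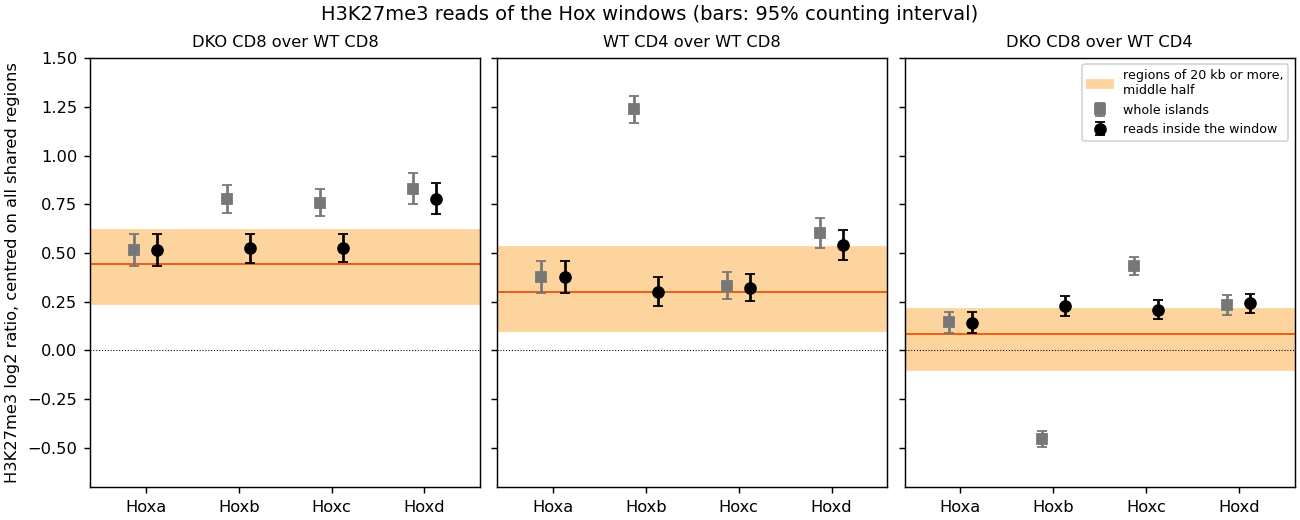
H3K27me3 log2 ratio (vertical axis) at each Hox cluster for 3 pairs of groups, centred on the median of all shared regions. Squares use whole islands, and circles use reads assigned to the window by island length inside it. Bars are 95% counting intervals and leave out the error of that assignment. The shaded band and its line give the quartiles and median of shared regions of at least 20 kb. Hoxa and Hoxc circles lie inside the band in each panel and Hoxd circles above it (0.78, 0.54 and 0.24), while the Hoxb squares of 1.24 and -0.46 lie far from their circles.

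Active marks covered a small part of the Hox windows, in some libraries less than genome-wide and in others more. Their H3K4me3 and H3K27ac islands had fewer reads at the median than their lists. H3K4me3 had 11 islands for WT CD8, 2 for DKO CD8 and 18 for WT CD4, each with 11 to 28 reads. The median H3K4me3 island there had 13, 14 and 16 reads, against 16, 17 and 19 over each list. H3K27ac had 19, 11 and 11 islands with 10 to 59 reads and medians of 17, 20 and 36, against 24, 34 and 59 over each list, and H3K9ac had 0, 1 and 5 with 14 to 35 reads. The share of the 4 windows covered by H3K4me3 was 1.53% for WT CD8, 0.330% for DKO CD8 and 3.18% for WT CD4, and genome-wide it was 1.47%, 0.843% and 1.08%. For H3K27ac the windows had 3.79%, 2.52% and 4.37%, against 3.23%, 2.29% and 2.49%. For H3K9ac they had 0%, 0.619% and 1.65%, against 0.524%, 0.446% and 1.77%. The H3K9ac lists differ in size, with 9860, 6516 and 32651 islands, so the H3K9ac counts are not comparable between groups. The H3K27ac lists (56985, 29636 and 24476 islands) and the H3K4me3 lists (42013, 23411 and 28449) also differ. Their counts are likewise not comparable without the cover. Cover by active marks thus lay between 0 and 2.95 times the genome-wide cover, whereas that by H3K27me3 was at least 15.8 times. Hox H3K27ac islands were thin, at 0.705, 0.586 and 0.481 times the mean read density of their lists.

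By cluster, Hoxa in WT CD4 carried the most active signal. It had 8 H3K4me3 islands (5.91% of the window; 386 of 22408 tiles had more cover), 6 H3K27ac islands (8.87%; 1931 tiles had more) and 3 H3K9ac islands (4.52%; 2674 tiles had more). In DKO CD8, Hoxa had 0 H3K4me3, 5 H3K27ac and 0 H3K9ac islands, and in WT CD8 it had 3, 2 and 0. Hoxb was the cluster with the most H3K27ac islands for WT CD8, 9 with 10 to 21 reads each, but had 1 for DKO CD8 and 2 for WT CD4. Hoxd had 5 H3K27ac islands in WT CD8 and 2 in each of the other groups, and Hoxc had 3, 3 and 1. The single H3K9ac island of DKO CD8 lay in Hoxb, 96123601 to 96126600 on chromosome 11, with 35 reads.

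Islands of the 3 active marks formed 61 loci in the windows, and 9 of these had islands of at least 2 groups, or 6 of 15 in Hoxa and 1 each of 16 in Hoxb, 15 in Hoxc and 15 in Hoxd. Over all chromosomes 20.4% of 148070 such loci had islands of at least 2 groups. Counts this small were not tested against that share. Of 11 DKO CD8 H3K27ac islands in the windows 4 met a WT CD4 island (59.1% over all chromosomes) and 1 met a WT CD8 island (37.9%). Of 11 WT CD8 H3K4me3 islands 1 met a WT CD4 island (19.8%) and 0 a DKO CD8 island (18.6%).

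Of the 6 Hoxa loci with islands of 2 groups, 4 had islands of DKO CD8 and WT CD4, and the other 2 of WT CD8 and WT CD4, not always of the same mark. At 52166401 to 52168600 on chromosome 6, WT CD4 had H3K4me3 (27 reads), H3K27ac (31) and H3K9ac (26), and DKO CD8 had H3K27ac (22). At 52161401 to 52163600, H3K27ac had 36 reads for DKO CD8 and 31 for WT CD4, which also had H3K4me3 (16). At 52142001 to 52142600, H3K27ac had 24 reads for DKO CD8 and 36 for WT CD4, again with WT CD4 H3K4me3 (14). WT CD8 had no island of an active mark at these 3 loci, and its reads there are not known. The locus with the most WT CD4 H3K27ac reads, 52106601 to 52108800 (59 reads, with 30 of H3K9ac and 18 of H3K4me3), had no such island in DKO CD8 or WT CD8. The groups had no mark in common at 52208601 to 52210200, with WT CD4 H3K4me3 (16 reads) and DKO CD8 H3K27ac (19). Nor did they at 52183001 to 52184600, with WT CD8 H3K27ac (13) and WT CD4 H3K9ac (25). Relative to the median of all shared regions, H3K27ac of DKO CD8 over WT CD4 had log2 ratios of -0.10, 0.61 and -0.19 at the first 3 loci, and each 95% interval includes 0. The remaining H3K27ac region called in both, in Hoxd at 74583401 to 74585400 on chromosome 2, had 14 and 37 reads (-1.01, -2.01 to -0.087), so 1 of 4 was at least 2-fold lower, against 7.25% of all. For DKO CD8 over WT CD8 the single shared H3K27ac region lay in Hoxc at 102763401 to 102764600 on chromosome 15. It had 18 and 16 reads, so raw reads were not lower in DKO CD8. Centred on the median ratio of 2.72-fold, its log2 ratio was -1.27 (-2.33 to -0.20). Of all shared regions 15.2% were at least 2-fold lower. The lowest island reads of these lists were 11 and 10. At such counts, being called in both lists limits the raw ratio, so no direction is read from this value. The Hoxc and Hoxd regions both had fewer reads than the minimum set for named shared regions.

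All H3K4me3 islands in the windows met H3K27me3 of their own group, but H3K27me3 covered most of each window. In WT CD4 100% of H3K4me3 cover in the windows also carried H3K27me3 (18.5% genome-wide), in DKO CD8 100% (11.8%) and in WT CD8 89.2% (34.8%). With only islands above the median reads of their list, the WT CD8 share was 50.0%, and no DKO CD8 H3K4me3 island was left. For H3K27ac it was 100%, 100% and 75.0% in the same order, against 9.90%, 9.91% and 42.7% genome-wide. H3K27me3 itself covered 94.5%, 93.2% and 74.0% of the windows, which is the share that any sequence in the windows has on average. The 100% shares of WT CD4 and DKO CD8 lay near this for both marks, and DKO CD8 had only 2 H3K4me3 islands. In WT CD8 the H3K27ac share (75.0%) was close to it, and the H3K4me3 share of 89.2% had an interval of 74.6% to 97.0%. The island counts that follow need only 1 bp of overlap and are raised by the same cover. By islands, 31 of 31 H3K4me3 islands in the windows overlapped an H3K27me3 island of their own group, where 24.8% of all H3K4me3 islands did for WT CD8, 11.5% for DKO CD8 and 19.4% for WT CD4. For H3K27ac it was 16 of 19 for WT CD8 (33.3% of all H3K27ac islands), 11 of 11 for DKO CD8 (13.6%) and 11 of 11 for WT CD4 (14.8%). For H3K9ac it was 1 of 1 for DKO CD8 (13.2%) and 5 of 5 for WT CD4 (17.5%). These marks were measured in separate libraries, so their presence on the same chromosome or in the same cell was not measured.

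**Figure D5:**
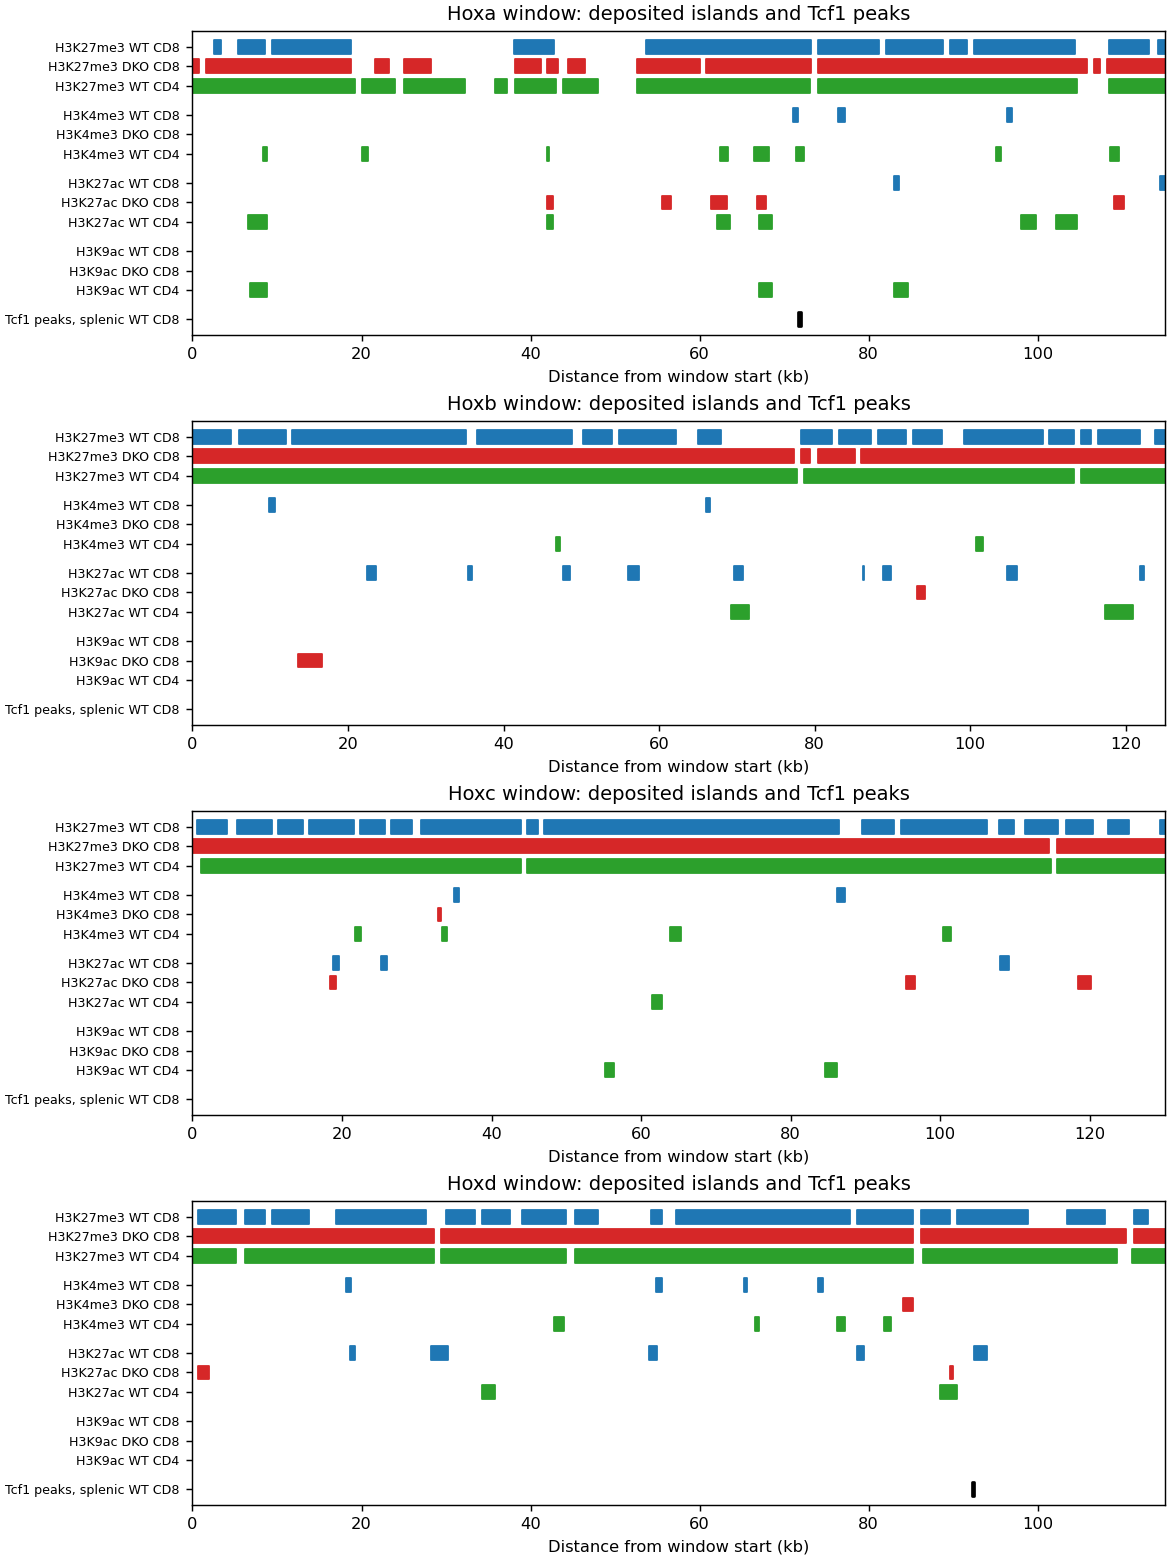
Islands of the 4 histone marks in the 3 groups and Tcf1 peaks, drawn to scale along each Hox window (horizontal axis, kb from the window start; 1 row per library, blue WT CD8, red DKO CD8, green WT CD4). The DKO CD8 and WT CD4 rows of H3K27me3 are nearly continuous except between about 19.2 and 52.6 kb of Hoxa. The WT CD8 row of H3K27me3 is broken into more islands in the 4 windows together (58, against 22 for DKO CD8 and 21 for WT CD4). The rows of the other marks hold short, scattered islands, and Hoxa and Hoxd hold 1 Tcf1 peak each.

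Tcf1 peaks lay at 2 places in the clusters, both below the median score of the list and both in H3K27me3 islands. Those islands covered 74.0% to 94.5% of the windows by group, so most sequence there lies in one. The share of all 7807 peaks that lay in H3K27me3 islands was not counted. The Hoxa peak, chromosome 6, 52171616 to 52171992, had the authors' score of 71.7, rank 4320 of 7807. It lay in H3K27me3 islands of the 3 thymocyte groups and in a WT CD4 H3K4me3 island (17 reads) that met a WT CD8 H3K4me3 island (17 reads). The Hoxd peak, chromosome 2, 74587266 to 74587484, had a score of 66.21, rank 4969, and lay in H3K27me3 islands of the 3 groups. Its end overlapped the edge of a WT CD8 H3K27ac island of 37 reads, which runs from 74587401 to 74589000. That island was the strongest of the H3K27ac islands of WT CD8 in the 4 windows. Hoxb and Hoxc had no peak. The windows had 4.12 peaks per Mb (0.499 to 14.9), and the genome between the outermost islands had 3.03, which lies inside that interval. The peaks come from splenic cells and the islands from thymocytes, so they were not measured in the same cells.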

How the data were processed

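The deposited island lists, 1 per histone library, give whole-number read counts per island, not normalized, as read from their values. Islands lie on a 200 bp grid. For Tcf1 peaks the authors' deposited score served only for ranking. Per the submitters' processing notes the build was mm9 and the tools included SICER 1.1, MACS 1.4.2 and Bowtie2 2.2.5, with no role given. Without calling settings or total reads, depth is known only as reads in islands: 2569785 (WT CD8), 3070897 (DKO CD8) and 4025243 (WT CD4) for H3K27me3, and 248234 to 2505720 for the other libraries. Inputs were not analysed here.

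Window cover was counted in bp, and islands of 2 libraries sharing at least 1 bp were merged into regions. Ratios of island reads were centred on the median log2 ratio of regions called in both, with exact Clopper-Pearson 95% intervals conditional on the sum. The interval for peaks per Mb is exact Poisson. Reads are PCR products without molecular identifiers, so intervals cover counting error only. Regions named are, per cluster and mark, the island with the most reads, every Tcf1 peak, and shared regions that differed 2-fold or more with a minimum of 50 reads in 1 library; others were named after their values were seen. Of the first, the text gives those of H3K27me3 and a choice of the rest. Members and lists were chosen with earlier results of these data known. Promoters are RefSeq, GRCm38. Values were computed with SciPy 1.17.1, pandas 2.3.3 and numpy 2.4.6 under Python 3.11.15. Overlaps were checked against bedtools 2.31.1, and ratios were tested on simulated data.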

Additional observations from a re-analysis of the deposited data

How the results depend on the processing

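Of 34 alternatives, 8 kept the value, 24 moved it and 2 reversed it. The log2 H3K27me3 ratio of DKO CD8 over WT CD8 (0.73) stayed above 0 in each, at 1.64 on total island reads, 0.58 with reads inside the window, 0.56 with islands above their list's median reads, 0.67 at equal covered length, 0.69 with islands at least 50% inside and 0.29 relative to regions of at least 20 kb, the last chosen after seeing the data. WT CD4 over WT CD8 (0.69) also stayed above 0, with 1.42, 0.38, 0.59, 0.66, 0.20 and 0.39 in that order. DKO CD8 over WT CD4 (0.048) did not: it was 0.21, 0.21, 0.0013, -0.0076, 0.49 and -0.039, so no direction is read from it. Whole wide islands that leave the windows set part of this spread, by construction.

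H3K27me3 cover of the windows with islands above their list's median was 69.4% for WT CD8 and 91.8% for DKO CD8. With windows widened by 20 kb the cover of WT CD8, DKO CD8 and WT CD4 was 68.3%, 89.3% and 91.8%, and at equal covered length 68.0% in WT CD8. WT CD8 stayed lowest. H3K4me3 cover under H3K27me3 in WT CD8 was 50.0% with stronger islands and 100% at equal covered length; for DKO CD8 no H3K4me3 island was left under the former. With peaks above the median score, 0 Tcf1 peaks were left. No paired analysis was possible because each group has 1 library per mark. Intervals for shares of cover treat each 200 bp bin as 1 unit.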

Other observations

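H3K27me3 did not stop at the window edges. In WT CD4 the Hoxb domain reached 110.8 kb before the window and in DKO CD8 22.8 kb, and the 20 kb before the window were covered at 100% in both groups and at 73.0% in WT CD8. In RefSeq's GRCm38 gene order Hoxb13 lies at the end of the cluster beyond Hoxb9, and the run from Hoxb13 to Hoxb1 is longer than the Hoxb window, so the window cannot hold all 10 Hoxb genes. The runs of the Hoxa, Hoxc and Hoxd genes named here are shorter than their windows. At Hoxc the DKO CD8 domain reached 31.2 kb past the window and the WT CD4 domain 8 kb. For WT CD8, DKO CD8 and WT CD4, cover of the 20 kb before Hoxa was 0%, 41.0% and 54.0%, and after Hoxa it was 69.0%, 96.0% and 96.0%. After Hoxd it was 15.0%, 65.0% and 86.0%.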
